A study of Mus musculus with 15 samples.

Results

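Sodium enters heart muscle cells through voltage-gated channels, each made of a large pore-forming alpha subunit and smaller beta subunits, and is pumped out again by the sodium pump (Na,K-ATPase). Beta subunits cross the membrane a single time and adjust how the pore opens, closes and reaches the cell surface. The pump pairs a catalytic alpha subunit with a beta subunit that carries it to the membrane, and a small FXYD protein tunes its affinity for sodium. In cardiac muscle sodium entry through the channels drives the upstroke of the action potential. The balance of entry and export affects the calcium load through sodium-calcium exchange.

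The genes examined were the channel subunit genes Scn4a, Scn3b and Scn4b, the pump beta subunit gene Atp1b1, and Fxyd1, which encodes phospholemman, the FXYD protein of heart muscle. They were taken as all probe sets annotated to exactly 1 gene symbol among these 5. That gave 9 of the 45101 probe sets on the array: 2 for Scn3b, 1 for Scn4b, 5 for Atp1b1 and 1 for Fxyd1. Scn4a, the alpha subunit gene best known from skeletal muscle, has no probe set annotated to it alone and was not analysed here. Of the 9, 8 passed the filter on weak signals, a log2 signal above 4 on at least 7 of 15 arrays.

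Hearts of 7 male mice heterozygous for Lmna H222P were set against those of 8 male control mice, all at 10 weeks, on 1 single-colour Affymetrix expression array per mouse. Lmna encodes lamins A and C of the nuclear lamina, and the heterozygous mice carry the H222P amino acid substitution on 1 allele. The labels say nothing more about the controls, and strain, litter and batch are not given in the sources used here. The p-values therefore measure spread among these arrays only. The tissue is labelled whole heart, and the question was which transcripts differ with genotype.

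Ventricular muscle markers were bright in both groups: Myl2, the ventricular regulatory myosin light chain, averaged 31309 signal units in heterozygous and 31763 units in control hearts (geometric means). The mean log2 level of the 6 markers listed as ventricular (Myl2, Myl3, Myh6, Irx4, Tnni3 and Ryr2) differed by 0.06 between the groups. Myh6, Tnni3 and Ryr2 are not confined to the ventricle, so this list describes heart muscle more widely. That of 6 atrial markers was 2.49 higher in heterozygous hearts (exact permutation test, adjusted p = 0.00280 over 9 lists), that of 4 smooth muscle markers 0.92 higher (adjusted p = 0.00466) and that of 5 erythroid and platelet markers 1.11 lower (adjusted p = 0.00280). Summed signals of the atrial list ran from 6506 to 40005 units in heterozygous and from 5718 to 10474 units in control hearts. Those of the smooth muscle list ran from 5615 to 11198 and from 3942 to 5695 units, and those of the blood list from 1698 to 3366 and from 3429 to 4243 units, in the same order. Of the single genes in these lists, each by its brightest tested probe set, 3 of 6 atrial genes (Sln, Myl7 and Myl4) were higher and 2 of 5 blood genes (Ppbp and Alas2) lower by limma's test over all probe sets, and 0 of 4 smooth muscle genes passed. A second probe set of the blood gene Slc4a1, 1434502_x_at, was also lower, by a log2 difference of -1.80 (adjusted p = 0.0476). Among the atrial genes that did not pass, Nppa lay at 0.87, Dkk3 at 0.98 and Bmp10 at -0.81. Second tested probe sets of Sln and Myl4 lay at -0.94 and -0.07, and that of Dkk3 at 1.61, all without passing. Fibroblast, endothelial, conduction, nerve and skeletal muscle lists did not pass on the deposited scale, though the fibroblast list did after median centring, at 0.63 (adjusted p = 0.0392). The skeletal muscle list, weak throughout, summed to between 171.5 and 755.8 units in heterozygous and between 127.4 and 765.6 units in control hearts. The part of these tissue differences in the results below was not tested.

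The upstream sequence of Scn4b, whose signal was lower in heterozygous hearts, and that of Atp1b1, whose brighter probe sets leaned the other way, are printed here for context. Each is the 250 bases before the annotated start site in RefSeq, build GRCm38.p6, read 5′ to 3′ on the gene's strand. The array does not measure these regions. Capitals mark matches to CCAAT or GGGCGG on either strand.
Scn4b, chr9:45138374-45138623, plus strand: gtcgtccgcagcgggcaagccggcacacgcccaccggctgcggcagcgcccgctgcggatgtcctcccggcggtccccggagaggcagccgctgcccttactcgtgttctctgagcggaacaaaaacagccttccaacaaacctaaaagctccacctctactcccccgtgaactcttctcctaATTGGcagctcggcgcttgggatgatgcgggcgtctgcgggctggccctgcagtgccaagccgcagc
Atp1b1, chr1:164458356-164458605, minus strand: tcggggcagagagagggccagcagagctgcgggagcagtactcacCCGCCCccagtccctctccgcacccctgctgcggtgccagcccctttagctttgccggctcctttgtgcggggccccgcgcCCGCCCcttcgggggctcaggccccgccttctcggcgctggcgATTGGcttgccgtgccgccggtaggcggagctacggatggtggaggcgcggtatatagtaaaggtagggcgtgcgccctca
Both windows hold 1 match to the CCAAT box, read on the reverse strand, which 33.8% of 32851 promoter windows of this length also hold. The Atp1b1 window holds 2 matches to the GC box GGGCGG, found in 32.7% of windows, and the Scn4b window holds 0. Neither window holds the TATA box TATAAA, present in 12.4% of windows, or the canonical E-box CACGTG, present in 6.02%. Neither holds the GATA site AGATAA, present in 9.99%, or the MEF2 core motif, present in 3.2%. Both strands were searched, and no match overlapped another.

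Scn4b had the 1 member probe set that passed on the deposited scale. Of 27 alternative analyses 19 did not keep the call, among them a rank sum test that could call no probe set. Scn4b encodes the sodium channel beta4 subunit, which binds the pore subunit covalently and promotes resurgent current in neurons. Its probe set, 1434008_at, gave 89.3, 38.8, 122.4, 112.2, 195.5, 70.9 and 143.3 units in heterozygous hearts 1 to 7. The 8 control hearts gave 351.8, 270.3, 247.3, 263.7, 369.4, 258.7, 335.7 and 202.1 units. All 7 heterozygous hearts lay below all 8 controls, and the nearest pair was heterozygous heart 5 at 195.5 and control heart 8 at 202.1 units. In bulk tissue, fewer cells that express a gene and less of its RNA per cell cannot be told apart.

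Mean log2 signals of Scn4b were 6.63 ± 0.76 (SD, n = 7) in heterozygous and 8.14 ± 0.30 (SD, n = 8) in control hearts. The difference of -1.51 (SE 0.28, 95% interval -2.12 to -0.90) put heterozygous hearts at 0.352 of control, with limma's adjusted p = 0.0412 over all 38870 tested probe sets. The interval spans ratios from 0.231 to 0.535. By p-value this probe set ranked 82 of 38870. It was the 1 called among 8 tested member probe sets, where 0.252% of all tested probe sets were called, 0.162% lower and 0.09% higher. The Scn4b difference was known when the members were chosen, so this count is a description and no test of the members. The typical tested probe set was also lower in heterozygous hearts, with a median difference of -0.11 on the deposited scale.

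**Figure D1:**
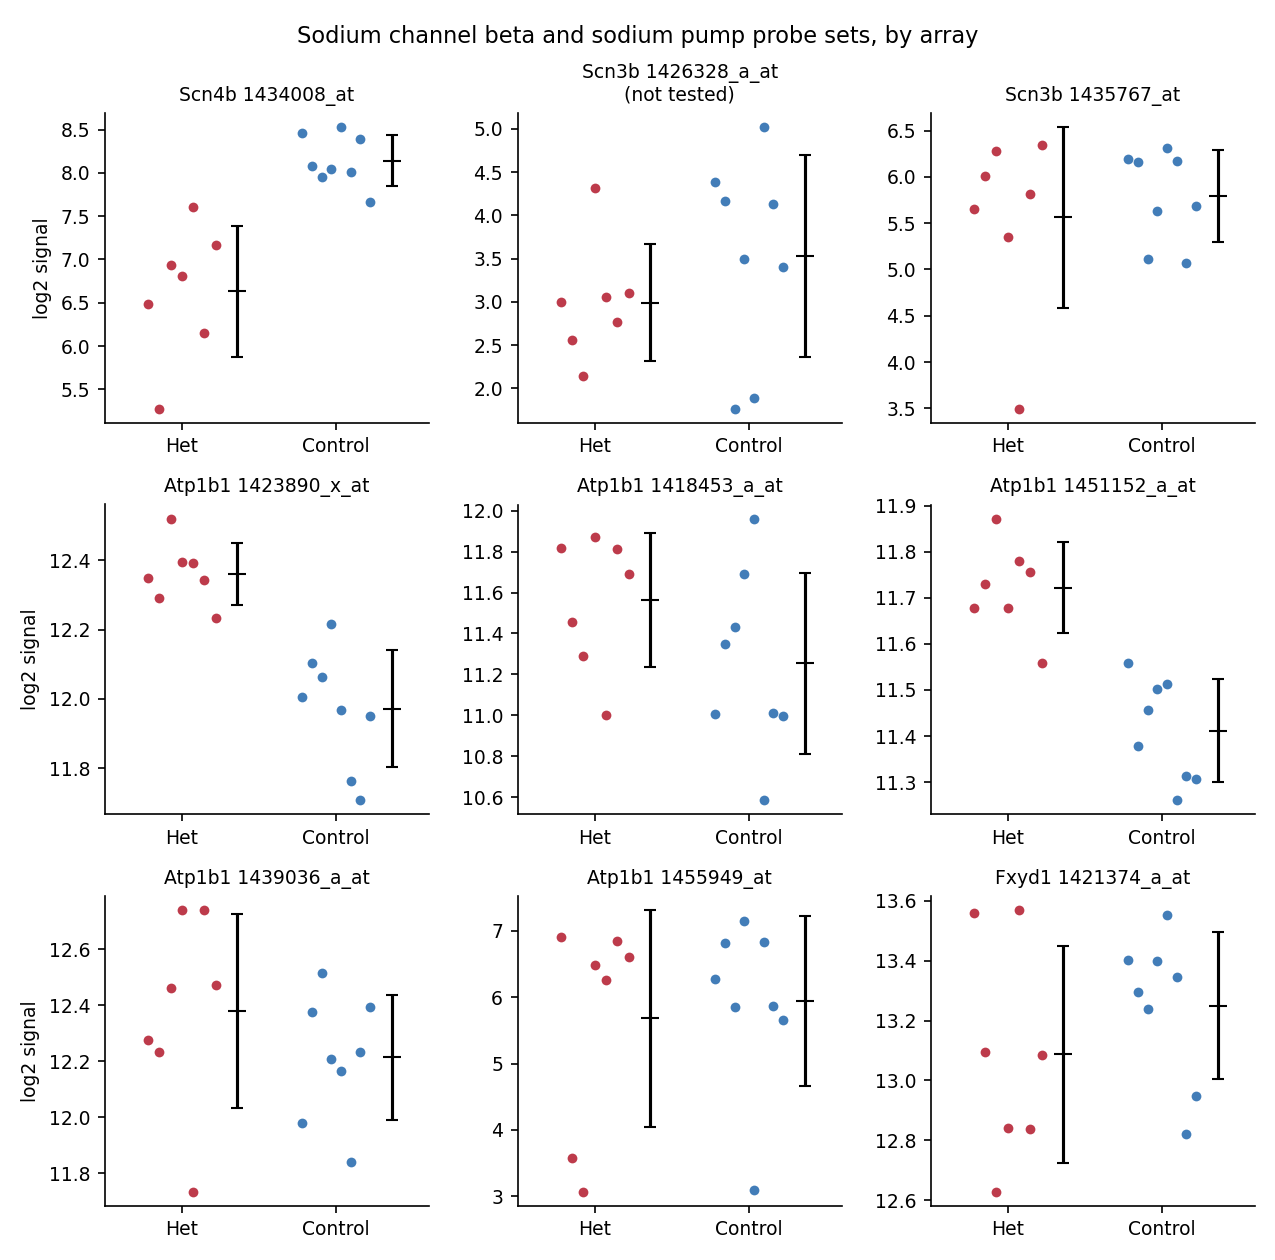
Log2 signal of each of the 9 probe sets of Scn4b, Scn3b, Atp1b1 and Fxyd1 on each array, with heterozygous (Het) hearts left in red and control hearts right in blue. Points are arrays in replicate order and bars are mean ± SD. Each panel has its own axis. The groups separate completely for Scn4b and for Atp1b1 1423890_x_at.

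The direction for Scn4b was the same in all 27 alternative analyses, with differences between -1.67 and -1.28, and the call held in 8. The rank sum test, where complete separation gave an adjusted p of 0.0657, could call no probe set. Leaving out heterozygous arrays 2, 5 or 7 kept it (adjusted p = 0.0327, 0.0300 and 0.0373). Leaving out any of the 8 control arrays, or heterozygous arrays 1, 3, 4 or 6, gave adjusted p from 0.0508 to 0.0910. Centring each array on its median gave -1.33 with an adjusted p of 0.0736, and quantile normalization gave -1.44 with 0.0691. Those settings called 0.196% and 0.167% of all tested probe sets. Log2 array medians averaged 6.14 in heterozygous and 6.34 in control hearts. The difference of -0.205 in array medians did not pass (exact permutation test, p = 0.0376, adjusted p = 0.113). Heterozygous heart 2, the lowest for Scn4b, also had the highest ratio of 3′ to 5′ signal for Actb, a sign of RNA quality, at a log2 ratio of 1.69. The next highest heterozygous ratios were 1.41 in heart 5 and 1.32 in heart 3, with Scn4b at 195.5 and 122.4 units. Heterozygous heart 6 had the lowest ratio of its group, 0.33, with Scn4b at 70.9 units. Ratios were 0.33 to 1.69 in heterozygous and 0.29 to 1.23 in control hearts and did not pass (exact permutation test, adjusted p = 0.298). Without the 4 arrays whose ratio exceeded 1.2, which were heterozygous arrays 2, 3 and 5 and control array 6, the difference was -1.51 with an adjusted p of 0.0371. With the ratio as a covariate on all arrays it was -1.47 and the call was lost (adjusted p = 0.0630).

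**Figure D2:**
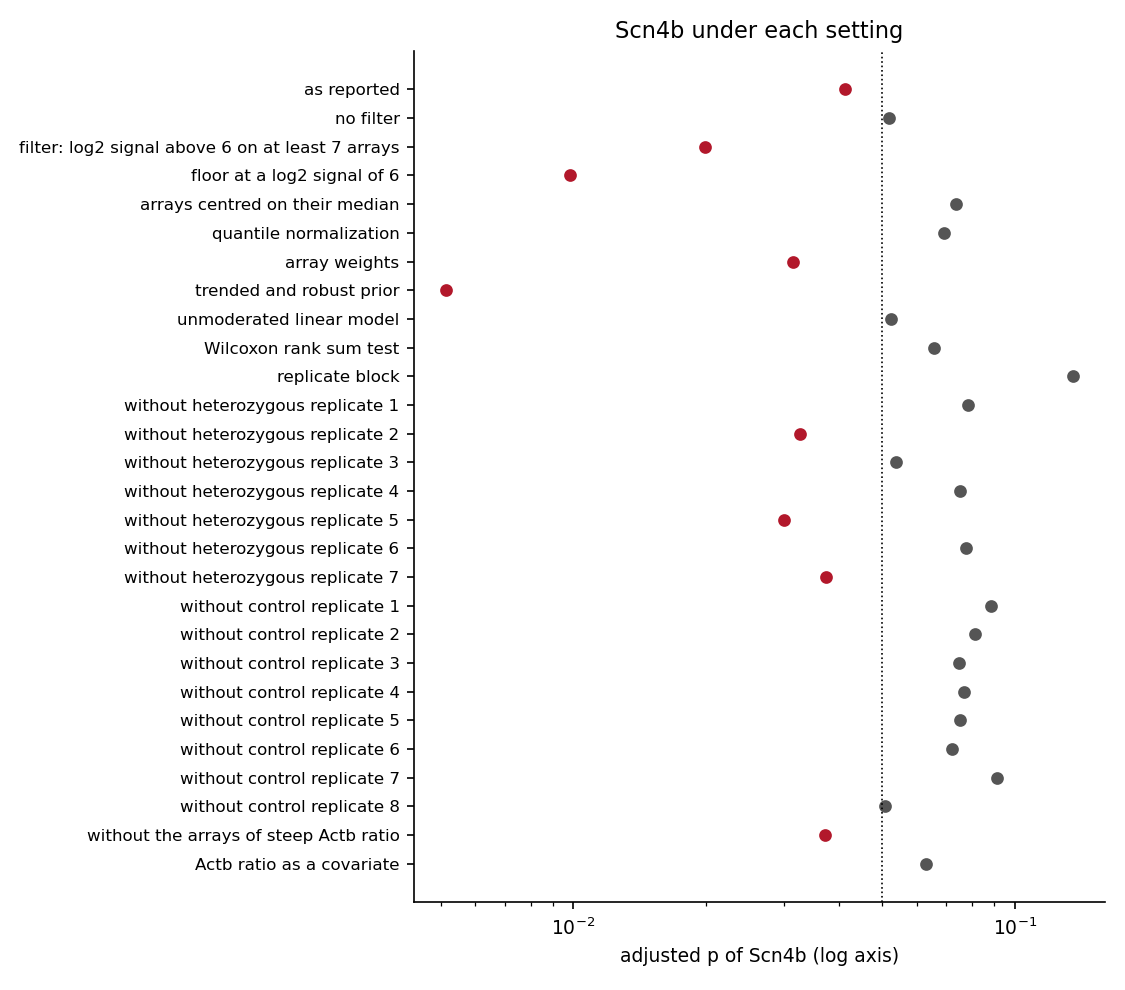
Adjusted p-value of the Scn4b difference between heterozygous and control hearts under each analysis setting, on a log axis. The dotted line is the threshold of 0.05. Red points lie below it, from 0.00513 to the reported 0.0412, and grey points lie above it, up to 0.136.

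Scn3b encodes the beta3 subunit, which associates with the pore without a covalent bond. Its brighter probe set, 1435767_at, ran from 11.3 through a median of 56.2 to 81.4 units in heterozygous hearts. In control hearts it ran from 33.5 through 61.5 to 79.6 units. The groups overlapped almost wholly, and heterozygous heart 5, at 11.3 units, stood apart from the other 6, which lay between 40.7 and 81.4. Mean log2 signals were 5.56 ± 0.97 (SD, n = 7) and 5.79 ± 0.50 (SD, n = 8), in heterozygous and control hearts. The difference of -0.23 did not pass (limma's adjusted p = 0.815), and its 95% interval spans ratios from 0.491 to 1.48. Without heterozygous array 5 it was 0.12, on the other side of 0. The second probe set, 1426328_a_at, exceeded the filter on 1 of 7 heterozygous and 4 of 8 control arrays and was not tested. Its signals were 4.4 to 19.9 units in heterozygous and 3.4 to 32.5 units in control hearts, in the range where signals of this table scatter widely.

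Atp1b1 encodes the beta1 subunit of the sodium pump, the main beta isoform of heart. Of its 5 probe sets 4 were bright and 1 was weak. The bright probe sets had higher means in heterozygous hearts, and none passed the test. The clearest was 1423890_x_at, at 5211.7, 5012, 5874.2, 5382.8, 5372.9, 5190.3 and 4817.1 units in heterozygous hearts 1 to 7. The controls gave 4108.9, 4394.6, 4278.1, 4754.1, 4008.4, 3476, 3346.4 and 3958.7 units. All 7 heterozygous hearts lay above all 8 controls, by a small margin between 4817.1 and 4754.1 units.

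The ratio for 1423890_x_at was 1.31 (95% interval 1.10 to 1.55), with log2 signals of 12.36 ± 0.09 (SD, n = 7) in heterozygous and 11.97 ± 0.17 (SD, n = 8) in control hearts. Limma's adjusted p was 0.171. The suffix x_at marks probe sets with probes that can match other sequences too. A neighbour designed from the same transcript record, 1451152_a_at, ranged from 3015.4 through a median of 3399.7 to 3747 units in heterozygous hearts, against 2453.9 through 2737.3 to 3016.8 units in controls. Of the 7 heterozygous hearts 6 lay above all controls. Its ratio was 1.24 (95% interval 1.06 to 1.45, adjusted p = 0.221). After the group means were removed, both probe sets varied together over the 15 arrays (Pearson r = 0.69, a description of probe sets that share a source record and the same arrays).

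The other bright probe sets of Atp1b1 were more scattered. 1418453_a_at had a ratio of 1.24 (95% interval 0.907 to 1.69, adjusted p = 0.520), over 2048.7 to 3754 units in heterozygous and 1536.2 to 3989.1 units in control hearts. 1439036_a_at had the highest mean of the 5 and a ratio of 1.12 (95% interval 0.876 to 1.44, adjusted p = 0.683). It ranged from 3405.7 to 6841.7 units in heterozygous and from 3667.7 to 5850.7 units in control hearts. The weak probe set 1455949_at spread from 8.4 to 120.4 units in heterozygous and from 8.5 to 141.9 units in control hearts, with a log2 difference of -0.26 and an interval of -1.76 to 1.23. Under median centring and quantile normalization the 4 bright probe sets stayed above 0, at 0.35 to 0.57 and at 0.14 to 0.36, without passing. Setting signals under a log2 of 6 to 6 before the test called 1423890_x_at (adjusted p = 0.0277) and 1451152_a_at (adjusted p = 0.0294), as did an unmoderated linear model (0.0477 and 0.0419). Those fits called 0.795% and 0.28% of all probe sets they tested. Over their other 25 alternatives the adjusted p lay between 0.0657 and 0.324 for 1423890_x_at and between 0.0848 and 0.442 for 1451152_a_at.

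Over the members, 2 of 8 tested probe sets had groups that did not overlap, 1 lower and 1 higher. Over all tested probe sets 0.468% had such groups, 0.28% lower and 0.188% higher. The members were chosen with earlier results of these data known, so the counts in this paragraph are a description. At an unadjusted p under 0.05 there were 3 of 8, those of Scn4b and the paired probe sets of Atp1b1, against 14.6% of all tested, 10.1% lower and 4.44% higher. The median difference of the 4 genes, each by its brightest tested probe set, was -0.20, beside -0.11 over all tested probe sets. Of the genes 3 were below 0 and 1 above, where 60.1% of all tested probe sets lay below 0 and 39.9% above.

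**Figure D3:**
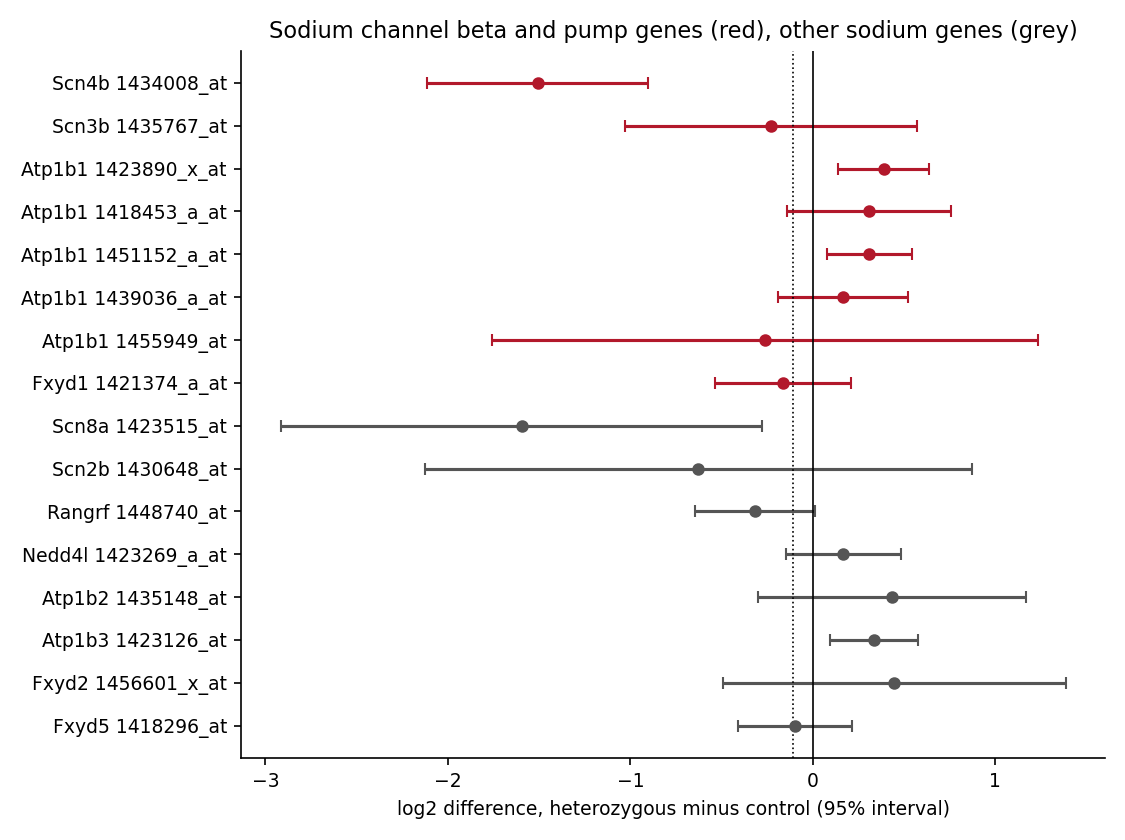
Log2 difference, heterozygous minus control, with limma's 95% interval for the 8 tested probe sets of Scn4b, Scn3b, Atp1b1 and Fxyd1 (red) and for 8 other sodium channel and pump genes (grey). The dotted line is the median of all tested probe sets, -0.11. Of the 16, Scn4b alone passed after adjustment, at -1.51, and the bright Atp1b1 probe sets lie at 0.17 to 0.39.

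Fxyd1 encodes phospholemman, which restrains the cardiac sodium pump until it is phosphorylated. Its probe set, 1421374_a_at, was among the brighter ones, at 6333.2 through a median of 8687.2 to 12151.3 units in heterozygous hearts and at 7234.9 through 10231 to 12027.9 units in controls. The groups overlapped over nearly their whole range, and heterozygous hearts 1 and 5, at 12068.5 and 12151.3 units, lay just above the highest control. Log2 signals were 13.09 ± 0.36 (SD, n = 7) in heterozygous and 13.25 ± 0.25 (SD, n = 8) in control hearts. The ratio was 0.893 (95% interval 0.690 to 1.16, limma's adjusted p = 0.706), and the log2 difference of -0.16 became 0.02 after median centring.

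The difference between Scn4b and each other member was also taken per array, as a difference of log2 signals with each gene by its brightest tested probe set and 3 values adjusted together. These values contain the Scn4b difference given above, which was known when the members were chosen, so they describe its size relative to the other members and are not independent evidence of it. Against Fxyd1 the difference was 6.46 ± 0.77 below 0 (SD, n = 7) in heterozygous hearts and 5.11 ± 0.31 below 0 (SD, n = 8) in controls. The groups were 1.35 apart and did not overlap (exact two-sided permutation test, p = 0.000311, the smallest it can give, adjusted p = 0.000932). Against Atp1b1 the shift was -1.67 (exact p = 0.00155, adjusted p = 0.00233), with 6 of 7 heterozygous hearts below all controls. Against Scn3b it was -1.28 (exact p = 0.0413, adjusted p = 0.0413), and heterozygous heart 5, whose Scn3b signal was 11.3 units, lay above every control. Leaving out heterozygous arrays 1, 2, 3, 6 or 7 or control arrays 1, 3, 4, 5 or 7 took the Scn3b value above the threshold (adjusted p from 0.0554 to 0.0886). The other 5 single omissions kept it, and the shifts ranged from -1.79 to -0.98. The shifts against Fxyd1 and Atp1b1 passed in all 15 omissions.

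**Figure D4:**
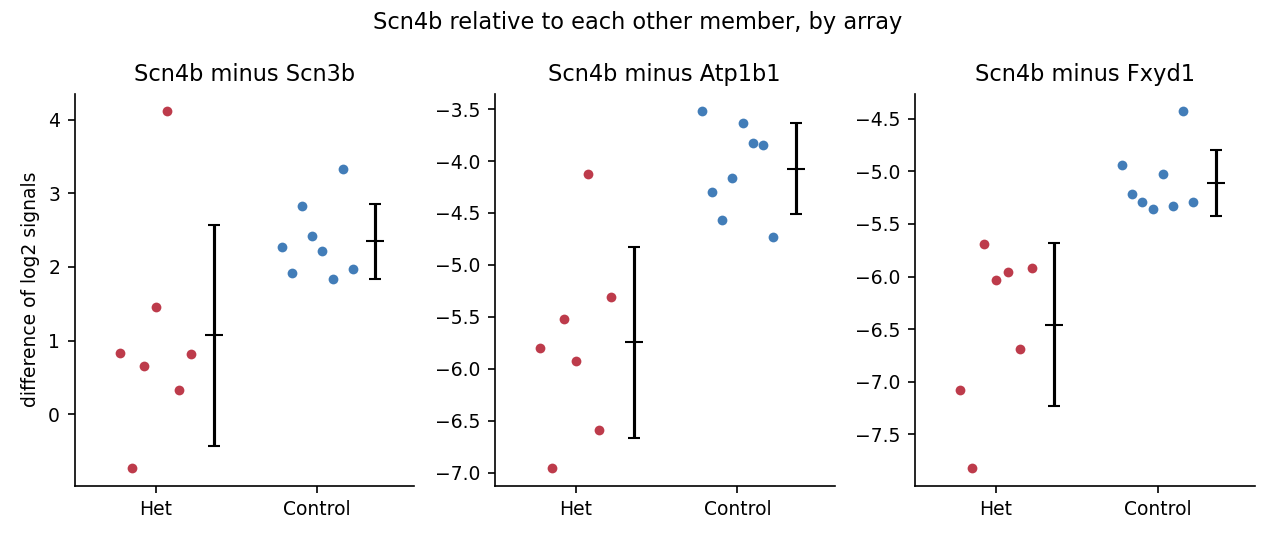
Per-array difference between the log2 signal of Scn4b and that of Scn3b, Atp1b1 (1439036_a_at) or Fxyd1, with heterozygous (Het) hearts left in red and control hearts right in blue. Bars are mean ± SD. The groups are 1.28, 1.67 and 1.35 apart, and 6, 6 and 7 of 7 heterozygous hearts lie below all controls.

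Of 18 other sodium channel genes and channel partners, 15 had a single-gene probe set and 13 were tested. None of their 29 tested probe sets passed limma's test after adjustment, beside 0.252% of all tested. An unadjusted p under 0.05 was found for 2 of the 29, against 14.6% of all tested. By the probe set that stands for each gene 4 were higher and 9 lower in heterozygous hearts, with a median difference of -0.08. Scn2b, the gene of the beta2 subunit and the next protein-coding gene to Scn4b on chromosome 9, had 56.7 units in heterozygous and 87.6 units in control hearts (geometric means), a difference of -0.63 with an adjusted p of 0.719. Its signals ran from 7.7 to 203.8 units in heterozygous and from 34.2 to 183.2 units in control hearts, so its groups overlapped. The value was -0.15 without heterozygous array 1, -1.80 without the 4 arrays of high Actb ratio and -1.14 with that ratio as a covariate, and other tested probe sets of Scn2b lay at 0.34 and -0.89.

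Scn8a, an alpha subunit gene best known from neurons, had 21.7 units in heterozygous and 65.5 units in control hearts in probe set 1423515_at. That difference of -1.60 had an interval of -2.92 to -0.28 and an adjusted p of 0.267, and other tested probe sets of Scn8a lay at -0.04 and 0.73. With the floor at a log2 signal of 6 the difference was -0.32, and without control array 8, the lowest control, it was -1.97. Rangrf, which encodes MOG1, a protein that aids surface delivery of the cardiac channel, had 1853 units in heterozygous and 2304 units in control hearts (adjusted p = 0.365). The controls spanned 2020.7 to 2503.7 units and the heterozygous hearts 1326.9 to 2405.9. Nedd4l, a ubiquitin ligase that acts on sodium channels, stood at a difference of 0.17 (adjusted p = 0.631), and 1 of its other probe sets, 1456044_at, was the second at an unadjusted p under 0.05, with a difference of 0.68.

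Of 12 other pump and exchanger genes, 8 had a single-gene probe set and 7 were tested, 3 higher and 4 lower, with a median difference of 0.00. None of their 13 tested probe sets passed, and 1 had an unadjusted p under 0.05, against 14.6% of all tested. That one was Atp1b3, the pump's beta3 subunit, at 1218, 1167.6, 1254.8, 1325.1, 1215.8, 1332 and 1219.2 units in heterozygous hearts 1 to 7. The controls gave 844.5, 978.2, 1038, 1046, 904.6, 884.1, 1123.6 and 1123.1 units. All heterozygous hearts lay above all controls, as in Atp1b1 1423890_x_at, and the ratio was 1.26 (95% interval 1.07 to 1.49, limma's adjusted p = 0.210). Of all tested probe sets 0.188% had groups apart in that direction.

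Atp1b2, the beta2 subunit, stood at a log2 difference of 0.43 with an adjusted p of 0.587. Its other tested probe set, 1422009_at, went the other way, at -0.15. Fxyd2, known as the gamma subunit of the kidney pump, stood at 0.45 (adjusted p = 0.674) on weak signals. Fxyd5, which lies near Fxyd1 on chromosome 7 as do Fxyd7 and Fxyd3, stood at -0.10 (adjusted p = 0.798), and at 0.08 after median centring. The sodium-calcium exchanger Slc8a1 had 261.4 units in heterozygous and 265.1 units in control hearts, a difference of -0.02.

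The probe sets of other genes most like Scn4b over the 15 arrays, among 14346 with a mean log2 signal of at least 7, were those of Mchr1, Fbp2 and Pdhb. Mchr1 encodes the receptor for melanin-concentrating hormone, Fbp2 the muscle fructose bisphosphatase and Pdhb a subunit of pyruvate dehydrogenase. Their Pearson r with Scn4b was 0.90, 0.90 and 0.89, which includes the difference between the groups and shared array scaling. Within heterozygous hearts (n = 7) r was 0.77, 0.73 and 0.84, and within controls (n = 8) it was 0.64, 0.06 and 0.36. These genes were picked for that likeness, so their values are a description. Mchr1 had 170.9 units in heterozygous and 352 units in control hearts, Fbp2 340.1 and 901.7 units, and Pdhb 472.1 and 674.8 units, in the same order.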

How the data were processed

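The authors isolated heart RNA with RNeasy columns and hybridised biotin-labelled target to Affymetrix arrays, per the labels. They deposited linear intensities, 1 for each probe set on each array. The submitters' processing notes name GCRMA, with no version in the sources used here. The values do not look like its output: they run from 0.1 to 80754.9, and the mean after trimming 2% at each end is 250.0 on every array. Array medians were 56.7 to 94.2 units. The number of arrays limits the precision.

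Signals were log2-transformed with no pseudocount. The 64 control probe sets were left out. A linear model with genotype as its sole term was fitted with limma 3.58.1 (eBayes; R 4.3.3) on 38870 probe sets with a log2 signal above 4 on at least 7 arrays, with p-values adjusted by Benjamini-Hochberg and called under 0.05. The test was checked on simulated data. Ratios are of geometric means. Other values used exact permutation tests over all 6435 arrangements (scipy 1.17.1, Python 3.11.15). Figures used matplotlib 3.10.9. Of the probe sets, 34958 had 1 gene symbol, 932 several and 9211 none.

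The genes and lists were chosen with earlier results of these data known. For a list, the brightest tested probe set stood for each gene. Text names all members, genes of either sodium list that passed or had its 4 smallest p, and the 3 probe sets most like Scn4b. Marker lists that moved are named too, and other genes were named after their values were seen.

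The alternatives comprised no filter, a stricter filter at a log2 of 6, a floor at 6, median centring, quantile normalization, array weights, a trended robust prior, an unmoderated model, a rank sum test, a replicate block, each array left out, and for contrasts the mean of a gene's probe sets. The fits with the Actb ratio and the scalings of marker lists were added after seeing the data.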

Additional observations from a re-analysis of the deposited data

Results flagged for a closer look

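In groups of 7 or 8 arrays, 7 of 52 groups examined held an array far from the rest by Dixon's test, where chance gives about 1 in 20. Scn3b 1435767_at on heterozygous array 5 had a log2 signal of 3.50 (11.3 units, the others 40.7 to 81.4). Atp1b1 1455949_at on control array 5 had 3.09 (8.5 units, the others 50.3 to 141.9). Scn8a 1423515_at on control array 8 had 3.42 (10.7 units, the others 66.5 to 167.3). Rangrf on control array 6 had 10.98 (2020.7 units, the others 2273.2 to 2503.7). Atp1b2 1435148_at on control array 7 had 5.88 (58.8 units, the others 145.3 to 298.6). The atrial marker mean on control array 6 was 8.46. The fibroblast marker mean on heterozygous array 2 was 10.12, low for its group.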

How the results depend on the processing

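Of the 8 tested probe sets of Scn4b, Scn3b, Atp1b1 and Fxyd1, 1 passed as reported. The count was 0 with no filter, median centring, quantile normalization, the replicate block and the Actb covariate. It was also 0 with the rank sum test, which could call no probe set here. It was 3 with the floor at a log2 signal of 6 and 2 with the unmoderated model, and between 0 and 1 when each array was left out. Of the other sodium genes, 0 probe sets passed as reported and 1, Atp1b3, passed with the floor (adjusted p = 0.0364). The cause was not tested. Differences of uncalled probe sets crossed 0 in a few settings. Atp1b1 1455949_at gave 0.06 with the floor, -0.67 to 0.17 when each array was left out, above 0 without heterozygous arrays 2 (0.09) and 3, 0.90 without the steep Actb arrays and 0.18 with the Actb covariate. Scn3b 1435767_at gave -0.36 to 0.12 when each array was left out, above 0 without heterozygous array 5, and 0.053 without the steep Actb arrays. Median centring gave 0.02 for Fxyd1 and 0.085 for Fxyd5, and the floor 0.073 for Scn2b. The markers listed as ventricular passed under quantile normalization (0.06, adjusted p = 0.0175). Peripheral nerve markers gave 0.13 and 0.082 under median centring and quantile normalization. The median difference of all probe sets was 0.08 after median centring and -0.02 after quantile normalization.

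Leaving out single arrays moved the Scn4b shift against Scn3b between -1.79 and -0.98. With the replicate block the Scn4b difference was -1.58 with an adjusted p of 0.136. Control array 8 has no same-numbered heterozygous array and adds nothing to that difference. Without control array 8 the difference was also -1.58 (limma's adjusted p = 0.0508). The block also fits a term for each replicate number, which weakens the test. The labels do not say whether same-numbered arrays are paired. Correlations of their deviations lay between -0.06 and 0.06, which cannot exclude a shared litter or batch. Weak signals, as for Scn3b, limit what could be seen.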
